A study of Mus musculus with 6 samples.

Results

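The genes described are those of the mouse major histocompatibility complex (MHC, whose mouse symbols begin with H2-) and of antigen presentation. They were chosen by symbol: every row of the count table that starts with H2-, together with B2m, Tap1, Tap2, Tapbp, Cd74, Ciita, Nlrc5, Psmb8, Psmb9 and Psmb10. This gave 47 of 37411 gene rows: 27 class I chains, 9 class II chains, 8 genes that serve class I, 2 that serve class II, and H2-Ke6, which lies in the MHC but encodes no MHC chain. In GENCODE M21 (GRCm38), 42 of the 47 lie on chromosome 17. Enough counts for a test were present for 28 members (15 class I chains, 8 class I pathway genes, 3 class II chains and both class II pathway genes), 19 were not tested, and 6 of those 19 held 0 counts in every library.

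The RNA came from primary hippocampal neurons of P0 mouse pups (strain label CD-1 IGS), used on day 16 in vitro. A group of 3 libraries received the solvent dimethyl sulfoxide (DMSO; libraries 1, 2 and 3) and a group of 3 received 50 µM forskolin, an activator of adenylyl cyclase that raises cyclic AMP, for 30 min (libraries 4, 5 and 6). The labels name no genetic change and do not say whether the libraries of a group came from separate cultures, so the p-values measure the spread between these libraries, which may be technical. The labels name no sorting step, and each library is bulk RNA. In bulk RNA, fewer cells of a type and less RNA per cell cannot be told apart.

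MHC class I molecules consist of a heavy chain and β2-microglobulin and carry peptides made by the proteasome in the cytosol, pumped into the endoplasmic reticulum by Tap1 and Tap2 and loaded with the help of tapasin (Tapbp). Most nucleated cells can make them, microglia and interferon-exposed cells make more, and in the brain neuronal class I has been linked to synapse development. Class II molecules carry peptides from the endocytic route, need the invariant chain (Cd74) and the exchange factor H2-DM, and are made chiefly by dendritic cells, B cells and macrophages. Nlrc5 and Ciita are the transactivators of class I and class II genes.

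Both classes are read from promoters that hold a module of short elements. In it, a cyclic AMP response element (CRE) or a part of one, the X2 box bound by CREB-family factors, stands upstream of a Y box bound by NF-Y, and classical class I promoters add a kappaB element further upstream. The following RefSeq stretches (GRCm38.p6) are shown because forskolin acts through cyclic AMP and because they let a class I and a class II promoter be compared. Each lies before the start site, 5′ to 3′ on the gene's strand, with capitals for the elements searched. Those are the kappaB element (first capitals of H2-K1 and H2-Q7), the core of the interferon-response element (first capitals of B2m), the CRE, whose letters are TGACGTCA, or its first part TGACG alone, and the Y box, CCAAT or its other strand. The H2-K1 stretch is chr17:34000353-34000467 on the minus strand, H2-Q7 is chr17:35439013-35439124 on the plus strand, and B2m is chr2:122147542-122147646 on the plus strand. Of the class II genes, the H2-Aa stretch is chr17:34287859-34287908 on the minus strand, and H2-Eb1 is chr17:34305797-34305841 on the plus strand.
H2-K1: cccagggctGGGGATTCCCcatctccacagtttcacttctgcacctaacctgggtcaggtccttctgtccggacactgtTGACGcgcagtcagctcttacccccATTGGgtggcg
H2-Q7: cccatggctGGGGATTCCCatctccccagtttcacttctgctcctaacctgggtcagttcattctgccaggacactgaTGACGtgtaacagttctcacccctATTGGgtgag
B2m: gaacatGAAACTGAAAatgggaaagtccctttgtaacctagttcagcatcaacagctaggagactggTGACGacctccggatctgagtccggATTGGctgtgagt
H2-Aa: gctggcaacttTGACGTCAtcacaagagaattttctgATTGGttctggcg
H2-Eb1: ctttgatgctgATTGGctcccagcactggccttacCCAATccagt

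H2-K1 and H2-Q7 share the order of kappaB element, part of a CRE and Y box, whereas H2-Aa has the full palindromic CRE and H2-Eb1 has Y boxes on both strands. RefSeq gave a window of 250 bases before to 50 bases after the start for 37 of the 47 members, and both strands were searched. The Y box was in a window of 32 of the 37 (19 of 22 class I chains and 8 of 8 class II chains). Over all genes with a window it was found for 11096 of 27025, and in 37.4% of all 32851 windows. TGACG was found for 15 of the 37, of which 11 were class I chains and 1 was the class II chain H2-Aa. The background was 6228 of 27025 genes, and 20.8% of all windows. The full CRE TGACGTCA, which always contains TGACG, was found for H2-Aa alone, against 549 of 27025 genes and 1.79% of all windows. The kappaB element was in H2-K1, H2-D1, H2-Q6 and H2-Q7, and in 35 windows in all (0.107%). The interferon-response core was in B2m, H2-T22 and H2-T23, against 1079 of 27025 genes and 3.44% of all windows. Class I promoters are copies of one another, so these matches are not independent, and a match is a description of the letters only.

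Total counts ran from 28342764 to 47548379 per library. In forskolin library 6 Fos, an early target of cyclic AMP signalling, stood at 447 CPM (counts made comparable between libraries with TMM factors), above the DMSO libraries at 186, 109 and 100 CPM and below forskolin libraries 4 and 5 at 830 and 901 CPM. Fos rose by 2.46 ± 0.36 (log2, SE; edgeR adjusted p = 0.0375). Library 6 nevertheless stood apart from libraries 4 and 5 in the genes described here, so results are also given without it where that changes the call or the value. It was picked out after these same values were seen, so smaller errors and p-values without it follow in part from that choice. Values without library 6 describe libraries 4 and 5 against DMSO and are no independent test. The 47 members together took 0.0435%, 0.0253% and 0.0214% of the counts in DMSO libraries 1 to 3 and 0.0964%, 0.103% and 0.0165% in forskolin libraries 4 to 6. The 95% Wilson intervals of these shares, which cover counting error only, do not overlap between any of the 6 libraries. Mitochondrial ribosomal RNA took 14.0% to 23.7% of the counts with DMSO and 26.9% to 33.3% with forskolin, and its part in the results was not tested.

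Most class I genes and genes that serve class I stood higher in forskolin libraries 4 and 5 than in the DMSO libraries, and within or below the DMSO range in forskolin library 6; Psmb10 and, in library 4, H2-Q1 lay inside the DMSO range. None of the 28 tested members passed the test over all 6 libraries (edgeR quasi-likelihood test, adjusted p under 0.05 over 16233 genes), where the background was 0.172% of genes called higher and 1.34% called lower. At an unadjusted p under 0.05, 6 members were higher and 1 was lower, against 10.6% and 11.7% of all genes. DESeq2 called 2 members higher and 0 lower, against 4.90% and 6.03% of all genes, and limma-voom called 0. The median log2 fold change was 1.26 over the 28 members and 0.02 over all tested genes, and 25 of the 28 values were positive. Without library 6, edgeR called 18 members higher and 1 lower, against a background of 15.8% higher and 16.7% lower. Leaving out any other single library gave 0 members called, as it gave 0 of all 16233 genes.

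The contrast between library 6 and the other forskolin libraries ran through most members. Library 4 stood above every DMSO library in 24 of the 28 tested members (37.5% of all tested genes did so), library 5 in 25 of 28 (37.1%) and library 6 in 0 of 28 (29.5%). Library 4 lay below every DMSO library in 1 of 28 (38.1% of all genes), as did library 5 (39.3%), in both H2-DMa. Library 6 instead lay below every DMSO library in 20 of 28 members, against 35.3% of all genes. Consequently 0 of the 28 had forskolin libraries that were all higher than the DMSO libraries (10.2% of all genes), and 1, H2-DMa, had them all lower (16.2%). The heat map of ratios to the DMSO mean shows this per library.

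**Figure D1:**
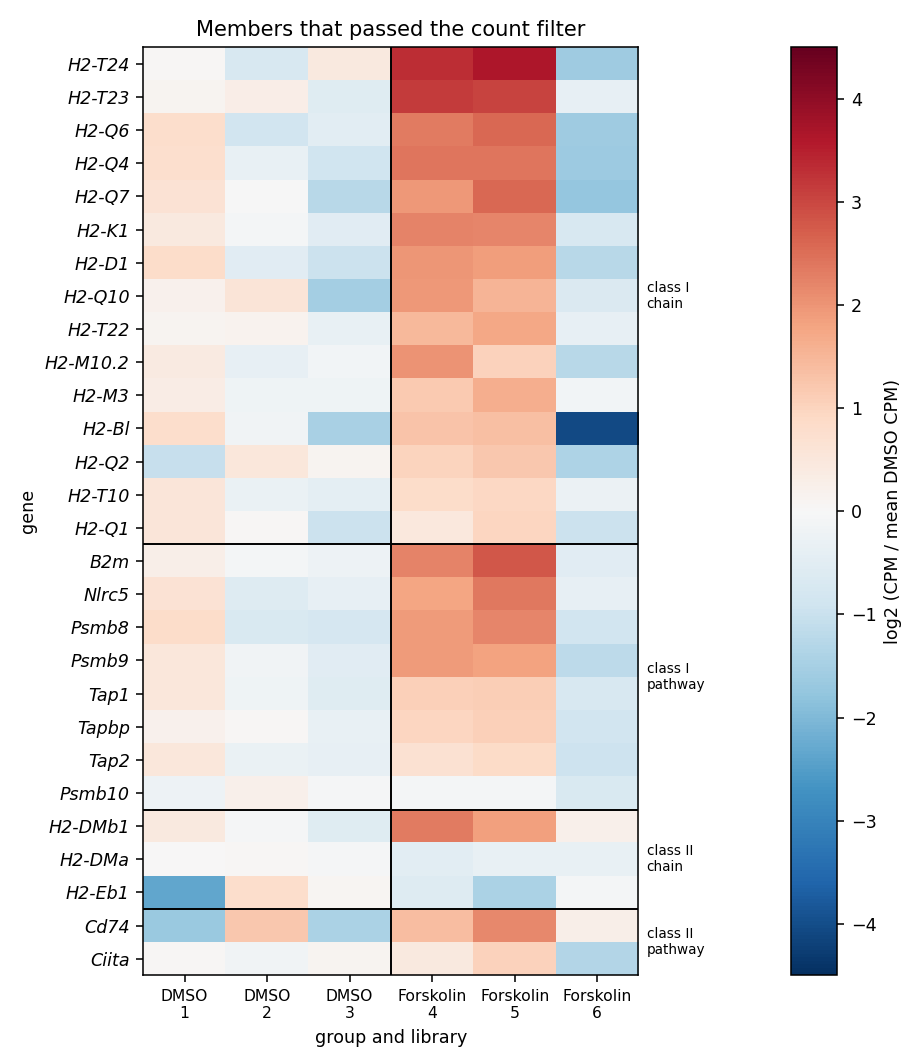
Log2 ratio of each library's CPM to the mean of the 3 DMSO libraries, for the 28 members that passed the count filter, with 1 row per gene and 1 column per library (red above, blue below the DMSO mean). The class I chains and the genes that serve class I are red in libraries 4 and 5, apart from Psmb10, and mostly blue in library 6.

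H2-K1 and H2-D1 encode the classical class I heavy chains, which present peptides to CD8 T cells. H2-K1 (chr17:33996017-34000347) stood at 49.4, 34.9 and 26.0 CPM in the DMSO group, against 171, 170 and 22.3 CPM in the forskolin group. The groups overlapped because library 6 lay below all 3 DMSO libraries, while libraries 4 and 5 lay far above them. The edgeR log2 fold change of H2-K1 was 1.72 ± 0.70 (SE), with an adjusted p of 0.212. Without library 6, H2-K1 rose by 2.22 ± 0.25, with an edgeR adjusted p of 0.00390, and over all settings tried the adjusted p ran from 0.00351 to 0.491.

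H2-D1 (chr17:35262730-35267499) read 117, 45.5 and 33.7 CPM with DMSO and 259, 241 and 27.8 CPM with forskolin. DMSO library 1 was the highest of its group by a wide margin, and library 6 was the lowest of all 6. The log2 fold change of H2-D1 was 1.43 ± 0.82 (edgeR adjusted p = 0.337), and without library 6 it rose by 1.94 ± 0.49 (edgeR adjusted p = 0.0282, range over all settings 0.0156 to 0.644). The ratio of H2-D1 to H2-K1 reads was 2.36 in DMSO library 1 and 1.248 to 1.51 in the other 5 libraries. Together the pair held 85.1% to 89.4% of all class I chain CPM in every library, so the class I sum is mostly theirs.

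The other class I chains were far less abundant. Nonclassical chains of the T region include H2-T23 (Qa-1), a ligand of inhibitory receptors on natural killer and T cells. H2-T23 stood at 0.843, 0.951 and 0.533 CPM with DMSO and 6.90, 6.40 and 0.597 CPM with forskolin. Only library 6 fell inside the DMSO range. For H2-T23 the log2 fold change was 2.58 ± 0.83 (edgeR adjusted p = 0.158; DESeq2 adjusted p = 0.0127), and without library 6 it rose by 3.10 ± 0.28 (edgeR adjusted p = 0.00330, range over all settings 0.00243 to 0.426).

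H2-T24, a T region chain next to H2-T23, stood at 0.281, 0.164 and 0.364 CPM with DMSO, against 2.72, 3.35 and 0.0895 CPM with forskolin. Library 6 held the lowest value of the 6. The log2 fold change of H2-T24, the largest of any tested member, was 2.90 ± 1.07 (edgeR adjusted p = 0.187; DESeq2 adjusted p = 0.0407), and without library 6 it was 3.46 ± 0.34 (edgeR adjusted p = 0.00365, range over all settings 0.00351 to 0.472). H2-T22, which γδ T cells can recognise, read 3.28, 3.41 and 2.38 CPM with DMSO and 8.38, 10.04 and 2.36 CPM with forskolin. H2-T10, its near copy, read 4.24, 2.39 and 2.16 CPM with DMSO and 5.18, 5.58 and 2.42 CPM with forskolin. The log2 fold changes of the H2-T22 and H2-T10 pair were 1.20 and 0.58, and without library 6 only H2-T22 passed the edgeR test (1.61 against 0.88, a difference that was not tested).

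Among Q region chains, H2-Q4 (Qb-1) was the most abundant, at 4.77, 2.26 and 1.54 CPM with DMSO and 15.1, 15.2 and 0.925 CPM with forskolin. H2-Q6 stood at 0.936, 0.295 and 0.392 CPM with DMSO and 2.74, 3.26 and 0.179 CPM with forskolin. Both had their highest DMSO value in library 1 and their lowest value in library 6. Their log2 fold changes were 1.86 and 1.92, and both passed the edgeR test without library 6 (2.40 and 2.46). H2-Q1 read 1.19, 0.852 and 0.420 CPM with DMSO and 1.15, 1.61 and 0.418 CPM with forskolin, so that library 4 lay inside the DMSO range; its log2 fold change was 0.38, with 0.75 without library 6 and -0.02 without library 5. H2-Q2 read 0.187, 0.557 and 0.420 CPM with DMSO and 0.785, 0.910 and 0.149 CPM with forskolin, with a log2 fold change of 0.67, and 1.12 without library 6. H2-Q1 and H2-Q2 did not pass the edgeR test with or without library 6.

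H2-M3, which presents N-formylated peptides, stood at 1.248, 0.885 and 0.869 CPM with DMSO and 2.27, 3.08 and 0.925 CPM with forskolin. Its log2 fold change was 1.06, and without library 6 it rose by 1.41. H2-Bl spread widely, at 1.75, 0.885 and 0.364 CPM with DMSO and 2.44, 2.55 and 0.0597 CPM with forskolin, the last being a value below that of 3 counts. H2-Bl had a log2 fold change of 0.76 with edgeR, 1.33 without library 6 and -0.01 with limma-voom. Of the 15 tested class I chains, 11 rose and 4 did not pass the edgeR test once library 6 was left out (15.8% of all genes were higher). The 12 untested chains held few reads: H2-T3 had 3, 2 and 2 counts with DMSO and 15, 11 and 5 with forskolin, H2-Q5 had 4, 3 and 2 against 12, 6 and 0, and 5 chains had 0 counts in every library. H2-M5 went the other way, with 1, 3 and 8 counts with DMSO and 2, 1 and 4 with forskolin.

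Sequence shared between these chains limits how far reads can be assigned to one of them. Of the 31-base words in their annotated transcripts, 50.8% of those of H2-T22 and 49.0% of those of H2-T10 also occur in another member, as do 42.9% for H2-Q6, 30.9% for H2-Q4, 23.2% for H2-D1, 22.7% for H2-K1 and 19.0% for H2-T23. By span, H2-T23 and H2-T24 lie wholly within A930015D03Rik on the other strand, and H2-T10 is wholly overlapped by Gm7030 on its own strand. The values of these single chains are therefore uncertain, and B2m, Psmb8, Psmb9, Psmb10, Nlrc5 and H2-DMa, which share no such words, each overlap another gene's span on the other strand. Patl2, the gene that overlaps B2m, stood between 0.0280 and 0.0984 CPM in every library. The part of these overlaps in the values was not tested. The MHC is also highly polymorphic, and the outbred strain named in the labels need not carry the alleles of the reference genome.

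β2-microglobulin, the invariant light chain, had the most reads of any member except in DMSO library 1, where H2-D1 had more. B2m (chr2:122147686-122153083) stood at 81.1, 64.5 and 58.5 CPM with DMSO and at 322, 469 and 48.2 CPM with forskolin. Libraries 4 and 5 lay 4.73-fold and 6.89-fold above the DMSO mean, and library 6 at 0.709 of it. For B2m, edgeR gave 2.04 ± 0.71 on the log2 scale (adjusted p = 0.174), and without library 6 it rose by 2.54 ± 0.20 (edgeR adjusted p = 0.00324, range over all settings 0.00324 to 0.454).

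Per kilobase of the longest annotated transcript, the scale on which genes can be compared, B2m stood at 94.3, 75.0 and 68.0 CPM per kb with DMSO and 374, 545 and 56.1 CPM per kb with forskolin. The class I chains summed to 90.5, 46.1 and 34.3 CPM per kb with DMSO and 236, 229 and 28.6 CPM per kb with forskolin. Light chain and summed heavy chains were both highest in libraries 4 and 5 and lowest in library 6, although B2m was higher in library 5 than in library 4 and the class I sum was not. On the same scale the mean DMSO levels were 31.1 for H2-D1, 19.6 for H2-K1, 12.4 for Psmb10, 12.1 for Tapbp, 7.75 for H2-DMa, 3.63 for Tap1, 3.29 for Tap2 and 1.17 for Psmb8. Over the DMSO libraries the neighbours H2-D1 and H2-K1, H2-K1 and Psmb10, Psmb10 and Tapbp, and Tap1 and Tap2 overlapped in this order.

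**Figure D2:**
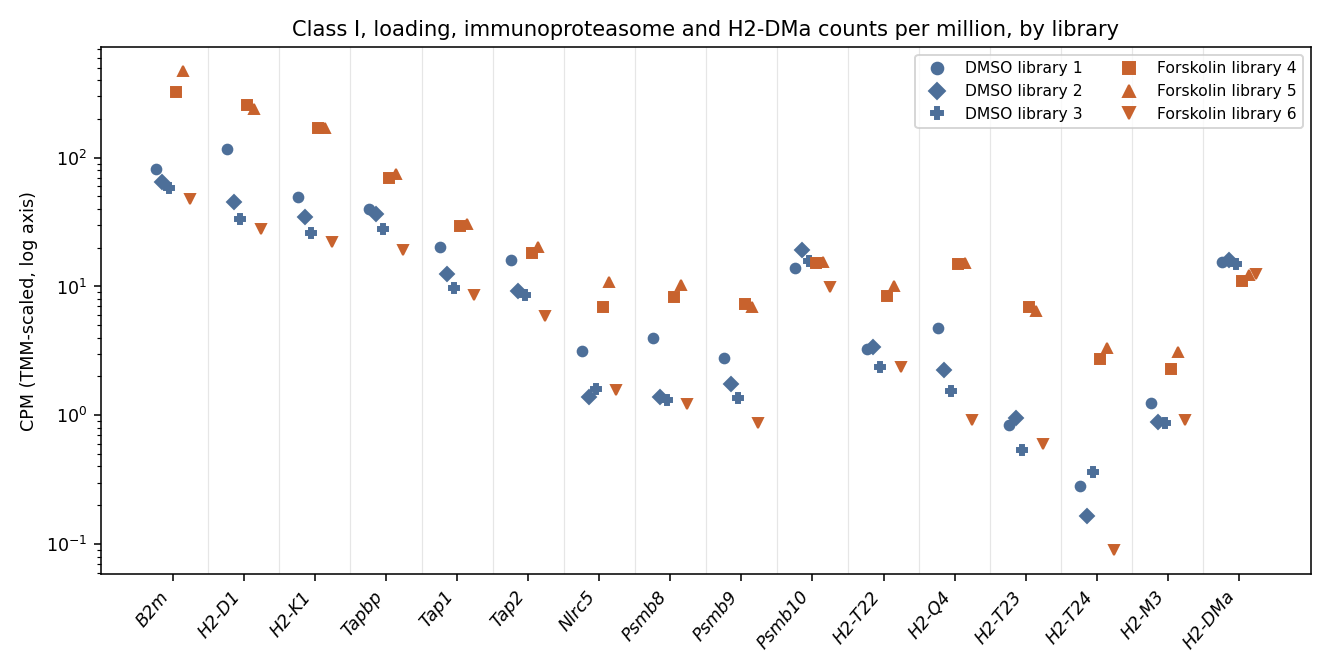
CPM of 16 members in each library on a log axis (blue, DMSO libraries 1 to 3; orange, forskolin libraries 4 to 6). Forskolin libraries 4 and 5 lie above the DMSO points in all but Psmb10 and H2-DMa, and forskolin library 6 is the lowest point for most genes.

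The peptide supply genes were higher in libraries 4 and 5 by smaller factors. Tap1, a subunit of the peptide pump, read 20.4, 12.5 and 9.73 CPM with DMSO and 29.7, 30.4 and 8.65 CPM with forskolin. Tap2, its partner, read 16.0, 9.28 and 8.66 CPM with DMSO and 18.1, 20.3 and 5.91 CPM with forskolin. Both had their highest DMSO value in library 1, and for Tap2 that value came close to library 4. The log2 fold change was 0.69 ± 0.50 for Tap1 and 0.39 for Tap2, and without library 6 Tap1 rose by 1.08 ± 0.29 (edgeR adjusted p = 0.0337, range over all settings 0.0157 to 0.758). Tap2 was at 0.76 without library 6 (edgeR adjusted p = 0.0759, range over all settings 0.0277 to 0.943), and the difference between the pair was not tested.

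Tapbp, the bridge between empty class I and the pump, stood at 40.2, 36.6 and 27.97 CPM with DMSO and 69.1, 74.1 and 19.2 CPM with forskolin. Its log2 fold change was 0.63, and without library 6 it rose by 1.04 ± 0.16 (edgeR adjusted p = 0.00691, range over all settings 0.00378 to 0.789). In GENCODE M21 Psmb9 and Tap1 overlap head to head by 212 bases on opposite strands, and Tapbp overlaps Zbtb22 on the same strand. The strand setting of the counting is not given in the sources used here, so reads from opposite strands may not have been told apart.

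The immunoproteasome subunits did not all show the same pattern, and the difference between them was not tested. Psmb8, one of its catalytic subunits, read 3.99, 1.38 and 1.32 CPM with DMSO and 8.32, 10.3 and 1.22 CPM with forskolin. Psmb9, another, read 2.78, 1.74 and 1.37 CPM with DMSO and 7.36, 6.90 and 0.865 CPM with forskolin. Their log2 fold changes were 1.57 and 1.36, and both rose without library 6 (2.06 and 1.86 by edgeR). Psmb10, the remaining catalytic subunit, read 13.8, 19.1 and 15.8 CPM with DMSO and 15.2, 15.4 and 9.97 CPM with forskolin. For Psmb10 libraries 4 and 5 lay inside the DMSO range, and its log2 fold change was -0.26 ± 0.22 (edgeR adjusted p = 0.498) with TMM scaling, -0.09 without library 6 and 0.00025 once the trend on GC content was removed.

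The constitutive counterparts Psmb5, Psmb6 and Psmb7 summed to 176, 177 and 156 CPM with DMSO and 152, 158 and 149 CPM with forskolin. Psmb8 and Psmb9 reads came to 3.85%, 1.76% and 1.72% of that sum with DMSO, and to 10.3%, 10.9% and 1.40% with forskolin. Library 6 again had the lowest ratio and DMSO library 1 the highest of its group.

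Nlrc5, the class I transactivator, followed the chains. It stood at 3.18, 1.38 and 1.60 CPM with DMSO and 6.96, 10.7 and 1.58 CPM with forskolin. Its log2 fold change was 1.65, and without library 6 it rose by 2.11 (edgeR adjusted p = 0.0121, range over all settings 0.00978 to 0.540). Of the 8 genes that serve class I, 7 exceeded all DMSO libraries in library 4 and in library 5 (37.5% and 37.1% of all genes did), and 7 lay below them in library 6 (35.3%). When library 6 was left out 6 of the 8 rose, against 15.8% of all genes.

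Class II chains were close to the detection floor, apart from H2-DMa. The chains of the classical class II molecules had few reads: H2-Aa 1, 1 and 1 counts with DMSO and 8, 12 and 1 with forskolin, and H2-Ab1 8, 5 and 5 counts with DMSO and 12, 28 and 5 with forskolin. H2-Eb1 had 2, 17 and 12 counts with DMSO and 10, 4 and 10 with forskolin. H2-Aa and H2-Ab1 were highest in libraries 4 and 5 but too low to be tested, and the counts of H2-Eb1 overlapped between the groups. In CPM, H2-Ab1 in library 4 (0.255) was nearly level with DMSO library 1 (0.250), and only library 5 (0.822) stood well above. H2-Eb1 had a log2 fold change of -0.59, with -0.89 without library 6 and 0.08 without DMSO library 2.

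The nonclassical class II chains exchange peptides on class II (H2-DM) or hold that exchange back (H2-O). H2-DMb1 had 9, 6 and 5 counts with DMSO and 49, 25 and 8 with forskolin, and without library 6 its CPM rose by 2.11 on the log2 scale (edgeR adjusted p = 0.0122, range over all settings 0.00954 to 0.450; 1.71 with all 6 libraries, adjusted p = 0.175). H2-DMb1 and H2-DMb2 share 31.4% and 29.7% of their 31-base words with other members, which makes both uncertain. H2-DMb2 had 5, 5 and 0 counts against 14, 10 and 4. H2-Ob had 7, 9 and 5 counts against 21, 12 and 4, and H2-Oa had a single count, in library 4.

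H2-DMa was far more abundant than the other class II chains. It stood at 15.5, 16.0 and 15.02 CPM with DMSO and 11.1, 12.2 and 12.4 CPM with forskolin, so that all 3 forskolin libraries, library 6 included, lay below all 3 DMSO libraries. The log2 fold change was -0.38 ± 0.13 (edgeR adjusted p = 0.168), and without library 6 it fell by 0.42 ± 0.12 on the log2 scale (edgeR adjusted p = 0.0412). Over all settings its adjusted p ran from 0.0167 to 0.553, and with the GC trend removed and library 6 left out the value was -0.24 (edgeR adjusted p = 0.147). The annotated span of H2-DMa overlaps Brd2, a bromodomain gene on the other strand, by 3094 bases. Brd2 stood at 252, 257 and 257 CPM with DMSO and 189, 193 and 215 CPM with forskolin (-0.36 on the log2 scale, with an adjusted p of 0.145 by edgeR). Without library 6 Brd2 fell by 0.42 on the log2 scale by edgeR, and its part in the H2-DMa values was not tested.

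Cd74, the invariant chain that occupies the class II groove until it is cleaved, had 3, 21 and 4 counts with DMSO and 37, 46 and 12 with forskolin. Its log2 fold change was 1.49 ± 0.83 (edgeR adjusted p = 0.324), and 1.85 without library 6. It was 2.99 without DMSO library 2, the library with 21 counts, and lowest without forskolin library 5, at 1.004. Ciita, the class II transactivator, had 17, 14 and 20 counts with DMSO and 33, 36 and 7 with forskolin, with a log2 fold change of 0.34, with 0.75 without library 6 and -0.12 without library 5. For both genes libraries 4 and 5 lay above every DMSO library, and neither passed the edgeR test with or without library 6.

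**Figure D3:**
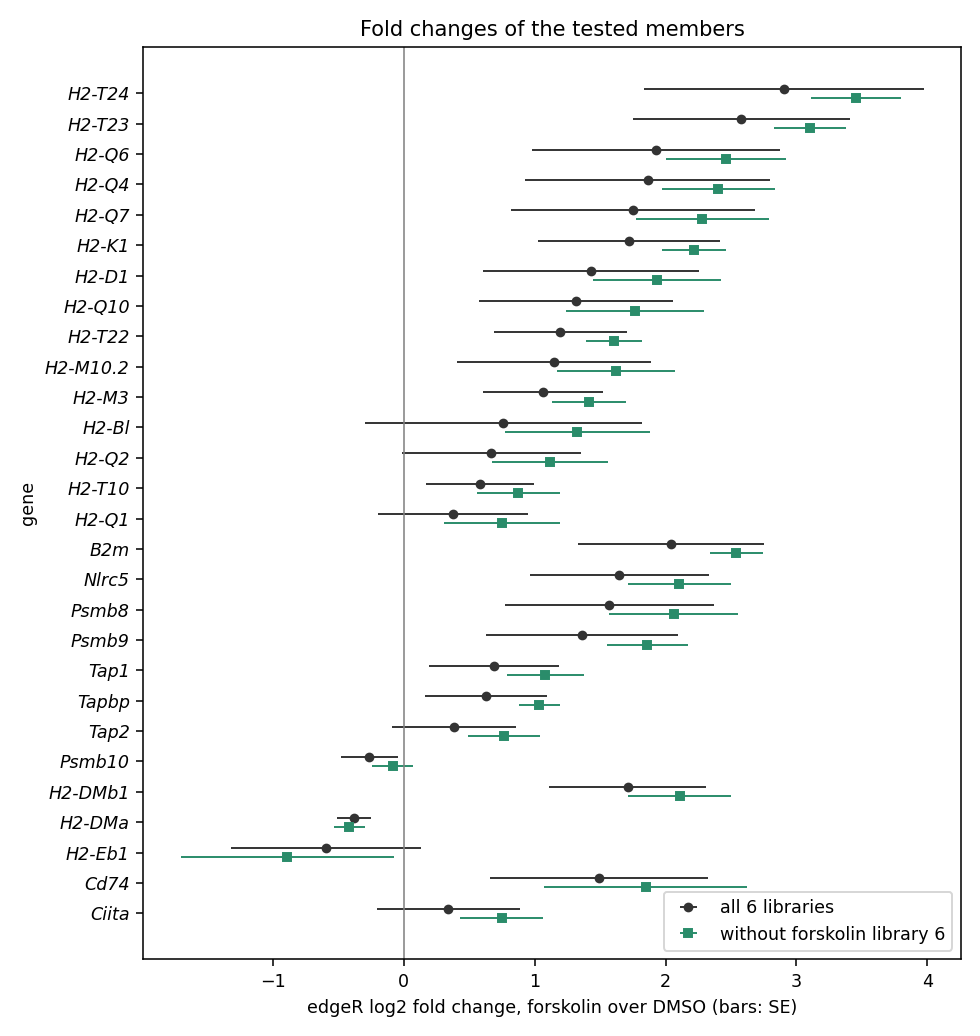
Log2 fold change (forskolin over DMSO, edgeR) of the 28 tested members with all 6 libraries (black circles) and without forskolin library 6 (green squares); bars are standard errors. For most class I chains and pathway genes the bars are shorter without library 6 and the values are larger, whereas H2-DMa stays near -0.4.

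Summed over their chains, the classes differed in level and in how they varied. Class I chains came to 186, 94.1 and 69.9 CPM with DMSO (117 ± 61.3, mean ± SD, n = 3) and 481, 466 and 58.9 CPM with forskolin (336 ± 240, n = 3). The log2 ratio of the group means was 1.52, and 2.02 without library 6. Class II chains came to 16.5, 17.5 and 15.8 CPM with DMSO (16.6 ± 0.836, n = 3) and 13.6, 14.9 and 13.4 CPM with forskolin (14.0 ± 0.806, n = 3), a log2 ratio of -0.25, which was -0.22 without library 6 and -0.054 with the GC trend removed. Class I overlapped between the groups through library 6, and class II did not overlap with TMM scaling, with all forskolin libraries lower.

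The class II sum was carried by H2-DMa, which held 91.7% to 95.04% of it with DMSO and 81.4%, 82.1% and 92.9% with forskolin. Without H2-DMa the remaining 8 class II chains came to 0.999, 1.44 and 0.785 CPM with DMSO and 2.53, 2.67 and 0.955 CPM with forskolin, a log2 ratio of 0.93, and 1.27 without library 6. That part of class II was therefore highest in libraries 4 and 5, as class I was, and inside the DMSO range in library 6. H2-Aa, H2-Ab1 and H2-Eb1 together came to 0.343, 0.754 and 0.505 CPM with DMSO and 0.637, 1.29 and 0.477 CPM with forskolin, with overlap between the groups.

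Set against class I in the same library and per kilobase, class II chains amounted to 9.28%, 19.2% and 23.3% of class I with DMSO and to 2.99%, 3.41% and 23.8% with forskolin. In CPM not divided by length the values were 8.89%, 18.6% and 22.6% with DMSO and 2.83%, 3.19% and 22.7% with forskolin. Libraries 4 and 5 had the lowest ratio of class II to class I and library 6 came close to DMSO library 3. Without H2-DMa the per-kilobase ratio was 0.708%, 1.84% and 1.40% with DMSO and 0.652%, 0.748% and 2.12% with forskolin, so that class I exceeded the other class II chains 47.1-fold to 153-fold in every library. For the classical genes alone, H2-Aa, H2-Ab1 and H2-Eb1 came to 0.182% to 1.24% of H2-K1 and H2-D1 over the 6 libraries.

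**Figure D4:**
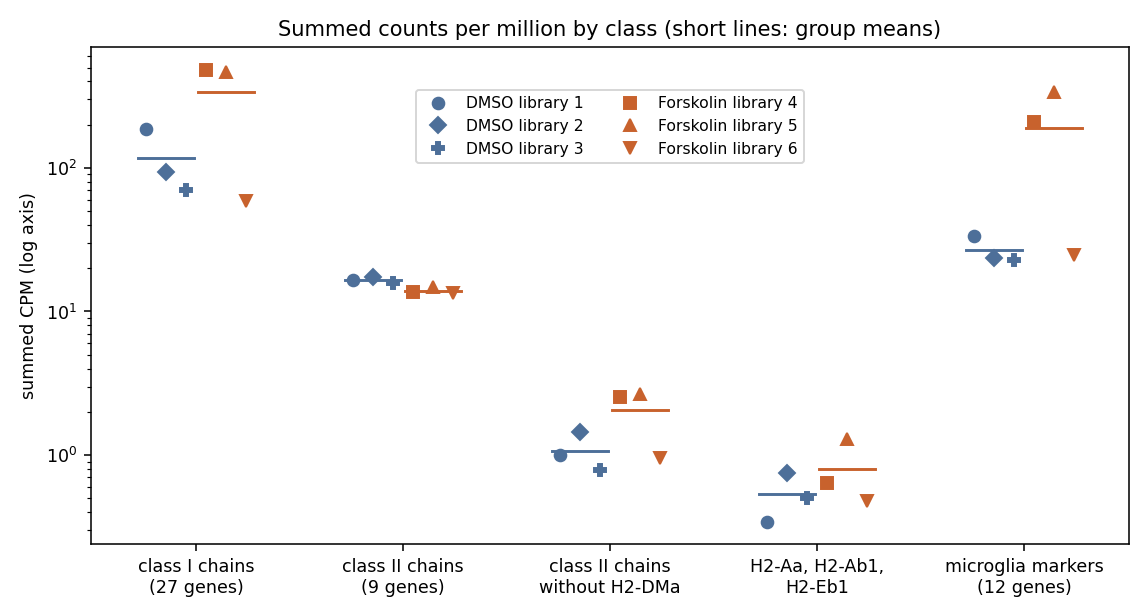
Summed CPM in each library (log axis) of class I chains, class II chains, class II chains without H2-DMa, the classical class II chains and 12 microglia markers; short lines are group means. Forskolin libraries 4 and 5 are high in class I and in the microglia markers, and class II with H2-DMa stays between 13.4 and 17.5 CPM.

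Other genes of the pathway were read from a list of 43, of which 36 were tested. None passed the edgeR test over all 6 libraries, and 9 had an unadjusted p under 0.05, against 10.6% of all genes higher and 11.7% lower. DESeq2 called 5 higher and 1 lower (4.90% and 6.03% of all genes), and without library 6 edgeR called 12 higher and 3 lower (15.8% and 16.7% of all genes). Loading chaperones shared with other proteins (Canx, Calr and Pdia3) had log2 fold changes of 0.24, -0.10 and 0.09 and did not pass with or without library 6. Erap1, which trims peptides for class I, stood at 19.2, 15.7 and 15.4 CPM with DMSO and 39.8, 42.8 and 16.5 CPM with forskolin. It rose by 1.30 without library 6, and of the proteasome activator genes Psme2 rose by 0.66 and Psme3 fell by 0.33 without library 6, while Psme1 stood at 0.02.

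Transcription and interferon genes were also read. Without library 6, Irf1, Irf8 and the myeloid factor Spi1 rose by 0.70, 3.02 and 4.10 on the log2 scale by edgeR, and none of these passed the edgeR test with it, whereas DESeq2 called Irf8 (adjusted p = 0.0417) and Spi1 (adjusted p = 0.0103) with all 6 libraries. The general promoter factors Rfx5, Rfxank, Nfya, Nfyb and Nfyc did not pass the edgeR test with or without library 6, and Rfxap fell by 0.47 without it. Interferon transcripts were scarce: Ifng had 2, 1 and 4 counts with DMSO and 9, 3 and 1 with forskolin, and Ifnb1 had 2 counts, both in library 4.

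Ctss, the protease that cleaves the invariant chain and a gene rich in microglia, stood at 0.437, 0.656 and 0.364 CPM with DMSO and 23.2, 48.7 and 0.627 CPM with forskolin. Its log2 fold change was 5.63 ± 1.39 (edgeR adjusted p = 0.105; DESeq2 adjusted p = 0.000714), and without library 6 it rose by 6.21 by edgeR. Cd86, a costimulatory ligand of antigen-presenting cells, had 2, 0 and 1 counts with DMSO and 59, 121 and 1 with forskolin. Pirb, a receptor for class I, had 0, 4 and 0 counts with DMSO and 28, 129 and 2 with forskolin. In all 3 genes libraries 4 and 5 stood apart from the other 4.

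As sums, markers of microglia and border macrophages were highest in the same libraries as class I. The 12 microglia markers summed to 33.8, 23.5 and 22.8 CPM with DMSO and 207, 337 and 24.6 CPM with forskolin, so the group ranges were 22.8 to 33.8 and 24.6 to 337 CPM. Of the 10 tested, 10 were above every DMSO library in library 4, 9 in library 5 and 2 in library 6 (37.5%, 37.1% and 29.5% of all genes). With all 6 libraries edgeR called 0 of these 10 (9 had an unadjusted p under 0.05) and DESeq2 called 9 higher (4.90% of all genes), and without library 6 edgeR called 9 higher (15.8%). Cx3cr1 stood at 0.655, 0.590 and 0.477 CPM with DMSO and 22.2, 46.3 and 1.16 CPM with forskolin, and Siglech, listed among the markers, had at most 1 count in any library. The border macrophage list summed to 2.06 to 2.72 CPM with DMSO and to 22.4, 44.0 and 4.15 CPM with forskolin, led by Mrc1 at 17.2 and 34.0 CPM in libraries 4 and 5. Its members did not share one pattern. Lyve1 stood at 1.78, 2.36 and 2.49 CPM with DMSO and 3.35, 3.85 and 3.55 CPM with forskolin. Cd163 had at most 3 counts in any library. The tested genes of that list, Mrc1 and Lyve1, lay above every DMSO library in library 6 also, unlike class I.

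The ratio of class I chain reads to microglia marker reads was 5.50, 4.004 and 3.07 with DMSO and 2.32, 1.38 and 2.40 with forskolin. It was lower in all 3 forskolin libraries than in all 3 DMSO libraries, since the marker sum was higher in libraries 4 and 5 by more than class I was, and class I was lower in library 6. Of the 6 dendritic cell markers, Cd209a had 0 counts in every library, and Itgax had 2, 3 and 1 counts with DMSO and 16, 5 and 0 with forskolin. The B cell list summed to at most 0.340 CPM in any library. The dendritic cell list ran from 15.7 to 16.3 CPM with DMSO and from 12.3 to 17.5 CPM with forskolin, most of it Zbtb46 (10.8 to 15.5 CPM over the 6 libraries), while Flt3 ran from 0.939 to 1.82 CPM.

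The labelled cell type was present in every library: the 8 neuron markers summed to 3503, 4145 and 4621 CPM with DMSO and 2702, 2907 and 4290 CPM with forskolin. Of these 8, edgeR called 1 lower over all 6 libraries, Rbfox3 (NeuN), which fell by 0.87 on the log2 scale (adjusted p = 0.0392; 1.34% of all genes were lower), and DESeq2 called 3 lower (6.03%). Rbfox3 stood at 69.1, 84.4 and 80.1 CPM with DMSO and 37.8, 42.8 and 47.1 CPM with forskolin, and with the GC trend removed it was -0.45 and not called. The other 7 ran from -0.86 (Tubb3) to 0.21 (Gad2), and without library 6, 4 of the 8 were lower and 0 higher by edgeR (16.7% and 15.8% of all genes). The 6 astrocyte markers summed to 4887 to 6177 CPM with DMSO and 4766 to 6984 CPM with forskolin. None of the 6 was called by edgeR over all 6 libraries (1 had an unadjusted p under 0.05, and DESeq2 called 1 higher, against 4.90% of all genes), and without library 6 Aqp4 rose by 1.501 and Aldoc fell by 0.87 on the log2 scale. The part of these cell types in the MHC values was not tested.

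The authors' deposited table lists 132 genes for forskolin against DMSO, where the count table has 37411 gene rows, and 4 of them are members. The row numbers it carries for these 4 run from 65 to 1224, so it appears to be a selection from a longer list. How its genes were selected was not examined here, so the count of 4 is not read as a result about the members. The log2 fold changes in the authors' deposited table are 1.91 (SE 0.242) for H2-K1, 1.501 (SE 0.291) for Psmb9, 1.53 (SE 0.339) for Psmb8 and 1.51 (SE 0.369) for B2m. Their adjusted p-values in the authors' deposited table run from 7.34e-13 for H2-K1 to 0.000623 for B2m. All 4 serve class I. The edgeR values of the same genes, given above, have the same direction and larger standard errors with all 6 libraries. The mean normalised counts of H2-K1 and Psmb8 in the authors' deposited table differ from those of the count table, so both sets of values may not rest on the same counts.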

How the data were processed

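Poly-A selection or depletion is not given in the sources used here; total RNA was extracted with Trizol and sequenced as Illumina libraries, per the labels' protocols. The authors deposited raw counts per gene symbol for 6 libraries. Salmon, DESeq and the build GRCm38 are named in the submitters' processing notes, without roles, versions or a strand setting. Per the file headers, a second deposited table holds for each gene the authors' log2 fold change and its error, their mean normalised signal, a test score, and raw and adjusted p-values; values from it are printed as deposited.

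From the counts, genes were kept with filterByExpr (minimum count 10, minimum total 15; 16233 genes), scaled by TMM factors and tested with edgeR 4.0.16 (glmQLFit, glmQLFTest) in R 4.3.3, all 6 libraries, group only, with Benjamini-Hochberg adjustment over all tested genes and a threshold of 0.05. The standard error is the absolute log2 fold change over the square root of F. Alternatives used DESeq2 1.42.0, limma 3.58.1, other scalings and filters, a correction for the GC content of the longest transcript (lowess span 0.3), and each library left out. The script was tested on simulated data. Class sums are sums of CPM without a test. Depth was 28342764 to 47548379 counts per library, so that 3 counts correspond to 0.0637 to 0.0984 CPM, and counting error adds to the spread of genes near that level.

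Genes named whatever their values were H2-K1, H2-D1, the class II A, E, DM and O chains and the 10 accessory genes. To these were added members past the threshold, the 6 other tested class I chains with the highest mean CPM, and the 3 with the largest positive and the 3 with the lowest log2 fold changes (none was negative). H2-T3, H2-Q5, H2-M5, Fos, Brd2, Patl2 and the pathway genes and markers given singly were chosen after their values were seen. Members and lists were chosen with earlier results of these data known. Gene lengths, spans, overlaps and 31-base words came from GENCODE M21, and promoters from RefSeq (GRCm38.p6), both matched by symbol; 47 of 47 members matched GENCODE. The values of some pathway genes and markers are not reported here.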

Additional observations from a re-analysis of the deposited data

How the results depend on the processing

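Over all tested genes, 245 were called with all 6 libraries by edgeR. The count was 137 with RLE factors, 102 with upper-quartile factors, 0 with the GC trend removed, 1775 with DESeq2 and 6794 with library quality weights, and it ran from 0 to 5279 when 1 library was left out, with 5279 only without forskolin library 6. With the GC trend removed and library 6 left out, an alternative chosen after seeing the data, it was 5118. Of the members, 0 were called with all 6 libraries, 2 with DESeq2, 20 with quality weights, 19 with the GC trend removed and library 6 left out, and 0 to 19 when 1 library was left out; the other settings gave 0. The class I log2 ratio of 1.52 was 1.37 with library size alone, 1.71 with the GC trend removed and 2.20 with library 6 left out as well, and ran from 1.17 to 2.03 when 1 library was left out; the forskolin libraries spread so widely that this spread is no measure of its stability. The class II log2 ratio of -0.25 was -0.36 with library size alone, -0.054 with the GC trend removed and -0.060 with library 6 left out as well, and ran from -0.28 to -0.19 when 1 library was left out. Of 394 values of the 25 named and tested members, 336 kept direction and side of the threshold, 52 kept direction and passed it, and 6 changed sign. Those 6 were H2-Eb1 at 0.084 without DMSO library 2 (-1.07 to 0.084 when 1 library was left out), Ciita at -0.12 and H2-Q1 at -0.018 without forskolin library 5 (-0.12 to 0.75 and -0.018 to 0.75), H2-Bl at -0.011 with limma-voom, and Psmb10 at 0.00025 with the GC trend removed and 0.13 with library 6 also left out; the cause was not tested. With 1 library left out of a group of 3, the test pools its spread over the 5 that remain. No paired analysis was possible because the libraries are numbered 1 to 6 across both groups and share no number. Depth limits the class II chains other than H2-DMa and the untested class I chains.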

Other observations

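The mean normalised count of H2-K1 is 952 in the authors' deposited table, and its mean over the same 6 libraries is 2753 normalised counts when computed from the deposited counts with DESeq2 size factors. The ratio of the authors' deposited mean to the mean from the counts is 0.346 for H2-K1, the second lowest of 131 genes compared, and 1.57 for Psmb8, the second highest. For Psmb9 and B2m the ratios of the authors' deposited mean to the mean from the counts are 1.09 and 0.902, against a median of 0.841 over the 131 genes.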
